A study of Mus musculus with 12 samples.

Results

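Complement is a system of plasma and cell-surface proteins that marks particles for uptake, calls in leukocytes and lyses cells. Its classical and lectin routes cleave C4 and C2, its alternative route uses factor B, and all of them meet at the cleavage of C3. Inhibitors such as C1 inhibitor and CD55 hold the cascade in check, and the fragments C3a and C5a act on leukocytes through their own receptors. The liver makes most plasma complement, while lung epithelium, stromal cells and macrophages make several components locally. The 8 genes described here are C3, C4b, C2 and Cfb (components), Serping1 and Cd55 (inhibitors), and C3ar1 and C5ar1 (receptors), out of 19212 genes in the deposited table. They were chosen by name with the read counts of these same libraries, and the fold changes from them, already known, so their own levels and fold changes are given as a description, without a test. The other 48 genes of 6 complement lists were tested with all genes.

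The 12 libraries are poly(A) RNA-seq libraries of mouse lung cancer tissue, in 4 groups of 3. The series grew tumours from LLC cells, a mouse lung carcinoma line. In one experiment the LLC cells carried an OTUB1 knockdown lentivirus (OTUB1_KD) or a negative control lentivirus (NC) before tumours were made, orthotopically per the series text. In the other, mice received SFD@M (group SFD@M) or physiological saline (group Blank). No strain, age, dose or time is given in the labels used here, and no lentivirus is stated for the LLC cells of the second experiment. The titles of the Blank libraries hold codes starting with KD, and the saline label was followed. Whether the 3 libraries of a group are 3 mice is not stated, and p-values therefore cover only the spread seen between libraries.

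Library totals were 16062805 to 18028815 counts. Levels are given as CPM, counts scaled to a common library total. Otub1 stood at 58.6, 49.3 and 71.2 CPM in OTUB1_KD, against 76.2, 73.9 and 69.8 CPM in NC, and these ranges overlap. It stood at 47.3, 45.5 and 48.1 CPM in SFD@M, against 78.0, 73.3 and 73.5 CPM in Blank, with no overlap. The labels call all libraries lung cancer, yet markers of leukocytes, endothelium, club cells and mesothelium were near 0 in NC and Blank. The summed leukocyte markers (Ptprc, Cd52, Laptm5, Coro1a) were at 696 to 842 CPM in OTUB1_KD and 1.99 to 2.49 CPM in NC, and at 569 to 717 CPM in SFD@M and 0.465 to 0.754 CPM in Blank. In each NC library 0 to 2 of these 4 markers were at 0, and in each Blank library 1 or 2 were. The 6 markers of alveolar type 2 cells summed to 9873 to 23605 CPM in OTUB1_KD and 66.2 to 67.1 CPM in NC, and to 21502 to 23800 CPM in SFD@M and 53.5 to 57.2 CPM in Blank. Markers of dividing cells ran the other way, at 159.7 to 724 CPM in OTUB1_KD and 2323 to 2414 CPM in NC, and at 22.1 to 76.4 CPM in SFD@M and 2355 to 2421 CPM in Blank. The neutrophil, endothelial, alveolar type 1, club-cell and mesothelial sums were likewise higher in every OTUB1_KD library than in every NC library, and in every SFD@M library than in every Blank library. The sum of the 6 fibroblast markers did not follow this, at 3235 to 5073 CPM in OTUB1_KD and 2198 to 2299 CPM in NC, but 1624 to 2216 CPM in SFD@M and 2678 to 2756 CPM in Blank. The part of these shifts in the complement levels below was not tested, and in bulk tissue fewer cells of a type and less RNA per cell cannot be told apart.

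C3, the protein on which all routes converge, was the most abundant of the 8 genes in OTUB1_KD, SFD@M and NC. It had 4493, 8270 and 8150 CPM in OTUB1_KD, against 130.4, 137.7 and 130.5 CPM in NC. The SFD@M libraries had 3729, 5114 and 4389 CPM, against 4.88, 5.62 and 4.72 CPM in Blank. C3 thus lay at 3 levels, with OTUB1_KD and SFD@M overlapping at the top, NC far below them and Blank lowest. Its log2 fold change was 5.65 ± 0.34 (SE of the fit, as for all fold changes here) in OTUB1_KD over NC and 9.72 ± 0.19 in SFD@M over Blank. In mean CPM these are 52.5-fold and 869-fold. Among all genes C3 ranked 4, 3 and 3 by counts in the OTUB1_KD libraries and 1757, 1647 and 1753 in NC, and 8, 4 and 5 in SFD@M and 9952, 9821 and 9987 in Blank. It alone took 0.449% to 0.827% of all counts in OTUB1_KD and 0.0130% to 0.0138% in NC.

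**Figure D1:**
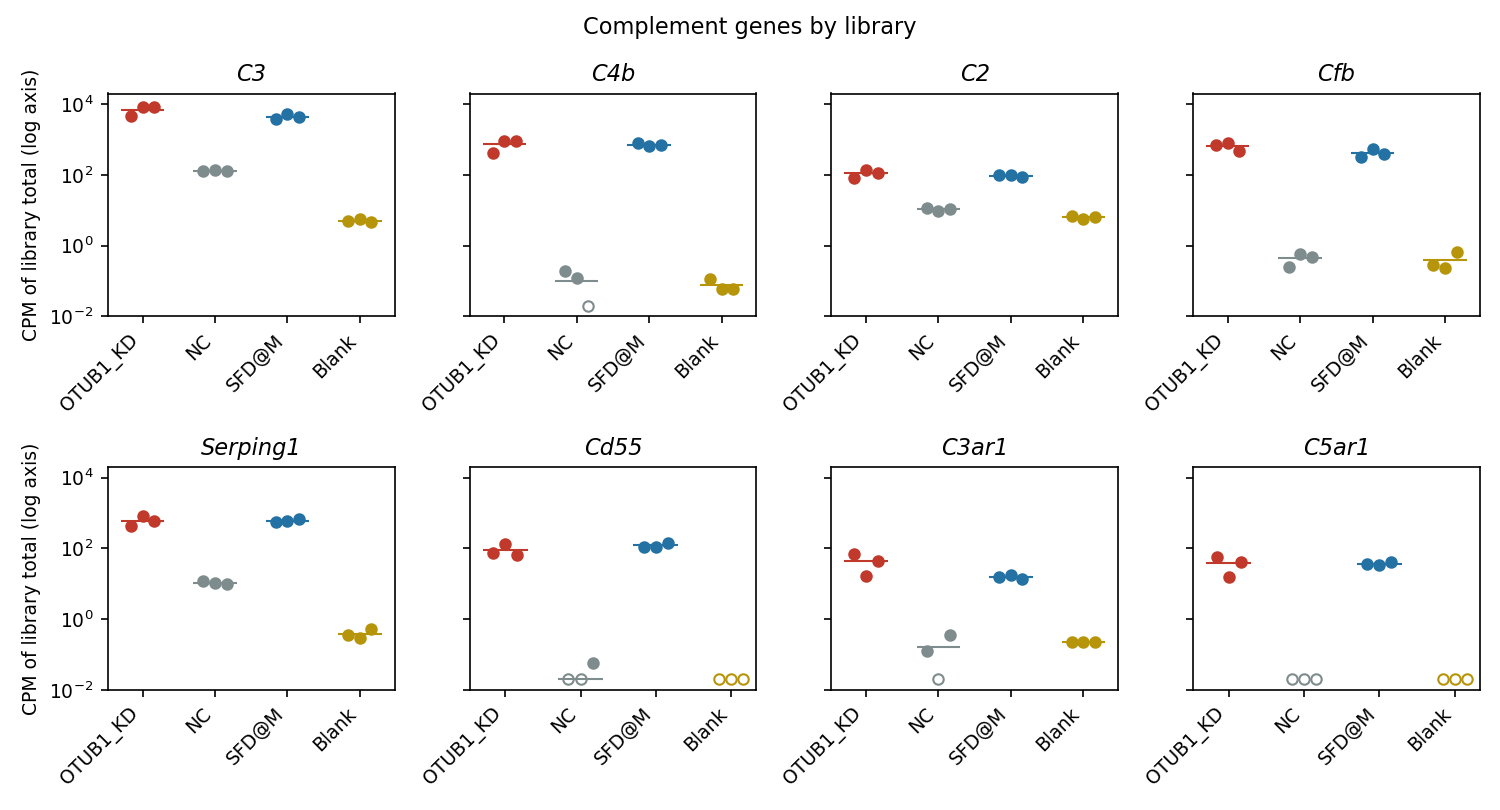
Level of each of the 8 complement genes in every library, in CPM on a log axis, with the libraries of a group as points and the group mean as a line. Open circles at the foot of a panel are libraries with 0 counts. In every panel the OTUB1_KD and SFD@M libraries lie above all NC and Blank libraries, and in the C3 and Serping1 panels Blank also lies clearly below NC, at means of 5.08 against 132.9 CPM for C3.

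C4b encodes complement C4, the substrate of the classical and lectin proteases. It had 422, 896 and 934 CPM in OTUB1_KD, while the NC libraries held 3, 2 and 0 counts. It had 779, 639 and 702 CPM in SFD@M, while the Blank libraries held 2, 1 and 1 counts. C4b was therefore close to undetected in both NC and Blank, and the fitted log2 fold changes of 12.70 ± 0.71 and 12.99 ± 0.17 rest on 5 and 4 counts in those groups. Mouse C4a is a near-identical copy, so reads could be split between them; C4a itself stayed at 38 counts over OTUB1_KD, 48 over NC, 57 over SFD@M and 39 over Blank.

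C2, the protease that joins C4b in the C3 convertase, was the member with the smallest contrast. It had 80.4, 139.6 and 117 CPM in OTUB1_KD, against 11.5, 9.69 and 10.8 CPM in NC. In SFD@M it had 102, 97.0 and 89.5 CPM, against 6.80, 5.80 and 6.30 CPM in Blank. C2 was detected in all 12 libraries, and its log2 fold changes were 3.33 ± 0.24 in OTUB1_KD over NC and 3.89 ± 0.09 in SFD@M over Blank.

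Cfb, whose product factor B is the protease of the alternative C3 convertase, had 700.3, 779 and 480.0 CPM in OTUB1_KD, against 0.249, 0.594 and 0.474 CPM in NC. In SFD@M it had 328, 525 and 397 CPM, against 0.291, 0.232 and 0.641 CPM in Blank. NC and Blank overlapped, at 22 and 20 counts per group in all. The log2 fold changes were 10.44 ± 0.41 and 10.01 ± 0.33. C3, C4b, C2 and Cfb all lie on mouse chromosome 17, and C4b, C2 and Cfb belong to the gene block of the major histocompatibility complex.

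Serping1 encodes C1 inhibitor, which blocks the proteases C1r, C1s and MASPs. It had 426, 823 and 582 CPM in OTUB1_KD, against 11.8, 10.4 and 9.96 CPM in NC. In SFD@M it had 568, 580.2 and 686 CPM, against 0.349, 0.290 and 0.525 CPM in Blank. As for C3, the upper groups overlapped while Blank lay below NC. The log2 fold change was 5.76 ± 0.31 in OTUB1_KD over NC and 10.56 ± 0.17 in SFD@M over Blank.

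Cd55, a membrane protein that speeds the decay of C3 convertases, behaved as present or absent. It had 73.8, 135 and 65.4 CPM in OTUB1_KD, while NC held 0, 0 and 1 counts. It had 108, 109.8 and 144 CPM in SFD@M, while Blank held 0 counts in each library. The count ratio of OTUB1_KD to NC was 4534, with a 95% counting interval of 813 to 179105 because it rests on 1 count, and SFD@M was at least 2078-fold higher than Blank, taking 3 counts over the Blank group as the floor. Intervals and floors cover counting error only. The 250 bases upstream of C3 and Cd55 are shown because C3 was still detected in every NC and Blank library, while Cd55 had 1 count in NC and none in Blank. They come from the RefSeq promoter table of GRCm38.p6, on the minus strand, C3 at chr17:57228137-57228386 and Cd55 at chr1:130462745-130462994. Capitals mark matches to an NF-kB motif (GGG, 5 bases of any kind, then CC) on either strand and, in C3, to a C/EBP motif TTGCNNAA.
C3: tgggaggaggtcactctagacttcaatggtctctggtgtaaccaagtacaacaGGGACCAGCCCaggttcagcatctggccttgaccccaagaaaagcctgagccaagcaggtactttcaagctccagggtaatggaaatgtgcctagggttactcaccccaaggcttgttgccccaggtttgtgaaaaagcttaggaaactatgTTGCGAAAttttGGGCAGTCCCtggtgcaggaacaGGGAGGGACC
Cd55: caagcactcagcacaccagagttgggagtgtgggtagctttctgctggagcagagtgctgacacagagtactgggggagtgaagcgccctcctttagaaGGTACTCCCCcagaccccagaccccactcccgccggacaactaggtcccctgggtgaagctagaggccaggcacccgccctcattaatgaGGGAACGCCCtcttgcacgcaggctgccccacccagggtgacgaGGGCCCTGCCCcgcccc
C3 held 4 NF-kB matches, of which 1 pair overlaps, starting 197, 196, 33 and 10 bases before the start site, and 1 C/EBP match 45 bases before it. Cd55 also held 4 NF-kB matches, of which 1 pair overlaps, at 151, 61, 17 and 16 bases, and no C/EBP match. The NF-kB letters occur in 45.8% of 32851 such windows and the C/EBP letters in 9.56%, so the matches describe these windows and show no binding. C3ar1 held 1 NF-kB match and a TATAAA match, and C5ar1 held no match to these motifs, nor to the STAT motif TTCNNNGAA, the IRF motif (GAAA, 2 bases of any kind, then GAAA) or the PU.1 motif GAGGAAGT, each searched on both strands. C3, Cd55 and C3ar1 likewise had no match to those last 3 motifs, which occur in 7.02%, 2.98% and 2.44% of windows, against 12.4% for TATAAA.

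C3ar1 and C5ar1 encode the receptors of C3a and C5a, found mainly on myeloid cells. C3ar1 had 70.9, 16.3 and 44.7 CPM in OTUB1_KD, while NC held 2, 0 and 6 counts. It had 15.97, 17.2 and 13.4 CPM in SFD@M, while Blank held 4 counts in each library. Its log2 fold change was 7.97 ± 0.90 in OTUB1_KD over NC and 5.98 ± 0.21 in SFD@M over Blank, both resting on 8 and 12 counts in the lower group. C5ar1 had 57.9, 15.2 and 41.3 CPM in OTUB1_KD and 0 counts in NC. It had 35.6, 33.3 and 40.2 CPM in SFD@M and 0 counts in Blank. That makes C5ar1 at least 635-fold higher in OTUB1_KD than in NC and at least 626-fold higher in SFD@M than in Blank. The 8 macrophage markers summed to 3824 to 9117 CPM in OTUB1_KD and 5.79 to 7.49 CPM in NC, and to 5290 to 5759 CPM in SFD@M and 2.74 to 4.01 CPM in Blank. Of these markers Adgre1 and Siglecf had 0 counts in every NC and Blank library. Their part in the receptor levels was not tested.

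All 8 genes had every OTUB1_KD library above every NC library, which 45.6% of the 14785 genes tested also had, and every SFD@M library above every Blank library, which 51.3% of 14824 genes had. Since the genes were named from these results, nothing is read from those counts.

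Blank and NC both served as controls, but they belong to different experiments, so the effect of the experiment and that of the group cannot be told apart. C3 was lower in Blank than in NC by a log2 fold change of −4.71 ± 0.06, or 26.2-fold lower in mean CPM. Serping1 differed as much, at −4.76 ± 0.20, or 27.6-fold lower. C2 was at −0.76 ± 0.10. The other 5 genes were too low for the filter on counts, with 4 counts over Blank and 5 over NC for C4b, 20 and 22 for Cfb, 0 and 1 for Cd55, 12 and 8 for C3ar1, and 0 in both for C5ar1. The large gap between the controls was thus found for C3 and Serping1. Cfb showed no such gap, at 0.388 ± 0.221 CPM in Blank and 0.439 ± 0.175 CPM in NC. C3ar1 was not lower in Blank either, at 0.233 CPM against 0.160 CPM in NC, though both genes rest on few counts. In C4b, Cd55 and C5ar1 the counts were too low to look for it. Some markers also differed between the controls. The neutrophil sum was 4.08 to 5.58 CPM in Blank and 22.5 to 23.5 CPM in NC, and the leukocyte sum was 0.465 to 0.754 CPM in Blank and 1.99 to 2.49 CPM in NC. Most of the NC neutrophil sum was Mmp9, at a mean of 16.05 CPM in NC and 1.201 CPM in Blank. Ly6g averaged 6.305 CPM in NC and 3.100 CPM in Blank, while S100a9 and Retnlg had 0 counts in both. S100a8, Csf3r and Cxcr2 had 20, 2 and 15 counts over NC and 9, 2 and 12 over Blank. Most of the NC leukocyte sum was Laptm5, at 1.663 CPM in NC and 0.2325 CPM in Blank. Whether NC held more neutrophils or leukocytes was not tested. Of the 6 fibroblast markers 4 were lower and 2 higher in Blank (edgeR, adjusted p below 0.05). By that rule 37.2% of all 12087 genes tested were lower and 37% higher. Col1a1, a collagen chain, was at 10.8 ± 1.44 CPM in Blank and 80.3 ± 2.35 CPM in NC, and the matrix gene Dcn (decorin) was at 9.61 ± 0.101 CPM in Blank and 18.2 ± 1.54 CPM in NC. Col3a1, which makes up most of the fibroblast sum, went the other way, at 2455 ± 33.6 CPM in Blank and 1932 ± 59.1 CPM in NC. The dividing-cell sums overlapped, at 2355 to 2421 CPM in Blank and 2323 to 2414 CPM in NC. The part of these markers in the gaps of C3 and Serping1 was not tested. Both groups also enter the comparisons above, so these values are not independent of them.

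Among the complement genes outside the 8, 15 of 48 passed the filter in Blank against NC, and 10 were lower and 2 higher in Blank. Over all 12087 genes tested, 37.2% were lower, 37% higher and 74.3% either by the same rule (edgeR quasi-likelihood test, Benjamini-Hochberg adjusted p below 0.05). Their median log2 fold change was −0.62, against −0.0003 over all genes. C1s1, the protease C1s of the first complement complex, fell to 57.9 ± 1.10 CPM in Blank, against 155 ± 3.66 CPM in NC (SD, n = 3 libraries each; log2 fold change −1.43 ± 0.03, edgeR adjusted p = 9.8e-51). Clu, the chaperone clusterin that binds late complement complexes, was at 152 ± 4.56 CPM in Blank and 299 ± 7.50 CPM in NC (−0.98 ± 0.03, edgeR adjusted p = 8.3e-47). Among the others, C1ra, C1s2, Colec11, Masp1, C8g, Cd59a and Itgb2 were also lower in Blank. Of these, Cd59a, which blocks the membrane attack complex, fell by 2.68 ± 0.27 on the log2 scale and C1s2 by 3.37 ± 0.22. The genes that rose were both membrane inhibitors of C3 convertases. Cr1l (Crry) was at 35.2 ± 0.947 CPM in Blank and 20.1 ± 0.416 CPM in NC (0.81 ± 0.06, edgeR adjusted p = 4.5e-21), and Cd46 was at 6.49 ± 0.433 CPM in Blank and 4.85 ± 0.504 CPM in NC (0.42 ± 0.12, edgeR adjusted p = 0.002). The Cd46 call was lost when all 12 libraries shared 1 fit (adjusted p = 0.42), as were those of Colec11 (0.12), Masp1 (0.099) and Itgb2 (0.26). In that edgeR fit C1s1, Clu and Cr1l kept their calls, but with much larger adjusted p of 0.00059, 0.00049 and 0.00054.

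**Figure D2:**
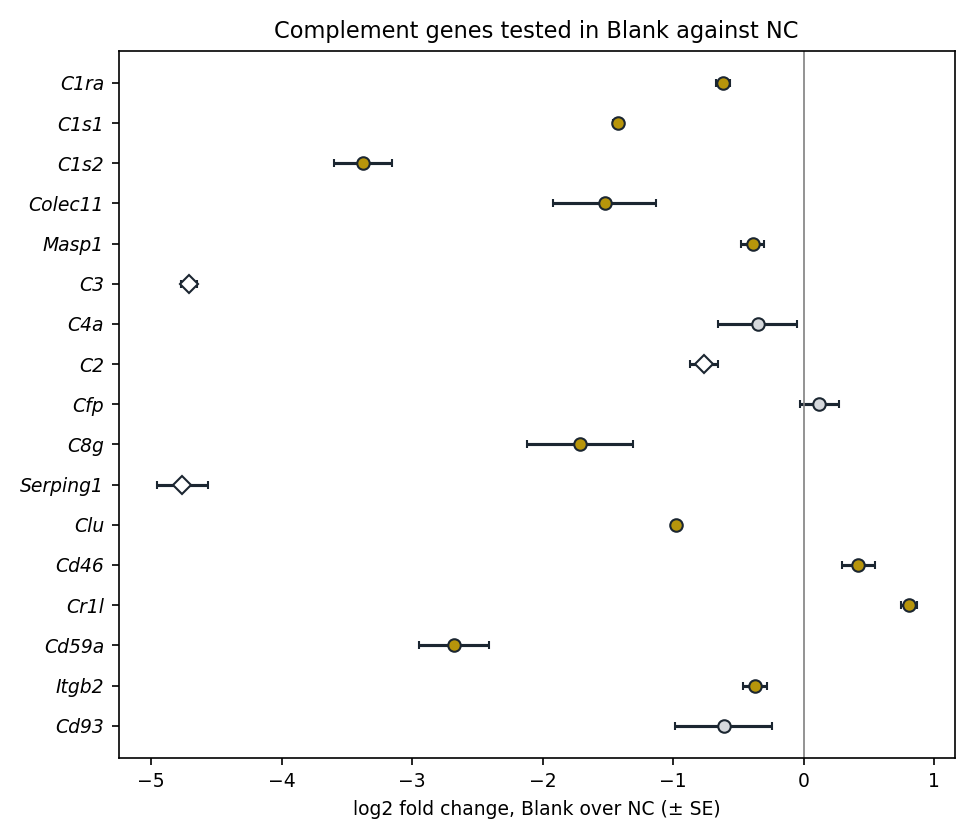
Log2 fold change of Blank over NC with its SE for 17 complement genes that passed the filter, in the order of their roles from C1 proteases to receptors. Open diamonds are C3, C2 and Serping1, given without a test, gold circles passed the adjusted p threshold of 0.05 and grey circles did not. C3 and Serping1 sit near −4.7, Cr1l and Cd46 lie to the right of 0.

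The remaining complement genes in OTUB1_KD against NC moved mostly one way. Of the 48, 31 passed the filter, and 25 rose and 2 fell, while over all genes 39.9% were higher, 25.8% lower and 65.7% either. Their median log2 fold change was 4.71, against 0.16 over all genes. Many passed the filter only through OTUB1_KD, where they were high, so neither this count nor the median stands for the whole list. On the TPM scale, which is corrected for transcript length, the median of all genes moved to −0.02, and in SFD@M against Blank it moved from 0.23 to −0.03. On that scale 25 complement genes were higher and 3 lower in OTUB1_KD, and 27 were higher and 1 lower in SFD@M. Over all genes on log2(TPM + 1), 10379 of 14785 were called in OTUB1_KD against NC, 52.1% of them higher. In SFD@M against Blank 13242 of 14824 were called, 49.1% of them higher.

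Among the genes that start the cascade, the 3 C1q chains, made mainly by macrophages, were the clearest. C1qa had 208, 87.2 and 169 CPM in OTUB1_KD and 0 counts in NC, at least 2570-fold higher. C1qb and C1qc averaged 209 ± 102 and 170.1 ± 82.1 CPM in OTUB1_KD (SD, n = 3), with 3 and 1 counts in NC. C1ra and C1s1, already detected in NC, rose by log2 fold changes of 2.92 ± 0.23 and 2.00 ± 0.21 (edgeR adjusted p = 8e-05 and 0.00028). Masp1 and C1s2 fell, by 1.52 ± 0.21 and 2.45 ± 0.52 on the log2 scale (edgeR adjusted p = 0.00078 and 0.0054). Mbl1 and Fcna, both pattern-recognition proteins of the lectin route, rose, and Colec11 did not pass (0.73 ± 0.67). Mbl1 held 0 counts in NC and passed the filter only through OTUB1_KD. Of the C5 and membrane attack genes, Hc, which encodes C5, reached 453 ± 170 CPM in OTUB1_KD with 8 counts in NC, C6 45.1 ± 9.07 CPM with 7 counts, and C7 351 ± 180.4 CPM with 1 count. C8a, C8b and C9, which complete the pore and are made in liver, stayed at 0 to 2 counts per group. The hepatocyte markers were low as well, summing to 0.809 to 1.83 CPM in OTUB1_KD and 2.43 to 7.47 CPM in NC, and to 2.52 to 6.36 CPM in SFD@M and 2.09 to 3.85 CPM in Blank.

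Of the soluble inhibitors other than Serping1, 5 passed the filter and all rose, among them Clu (0.84 ± 0.17), Cfi, Vtn and Cpn1. Cfi, Vtn and Cpn1 held 2, 9 and 7 counts over NC and passed the filter only through OTUB1_KD. Among the membrane inhibitors Cr1l (1.76 ± 0.15), Cd59a (1.85 ± 0.36) and Susd4 (6.83 ± 0.60) rose, and Cd46 was at −0.04 ± 0.37. Susd4 held 5 counts over NC and passed the filter only through OTUB1_KD. All 6 receptor genes tested rose, namely C5ar2, Cr2, Itgam, Itgax, Itgb2 and Cd93. Of these, C5ar2, Cr2, Itgam and Itgax held 7, 6, 4 and 8 counts over NC and passed the filter only through OTUB1_KD. Over all genes 39.9% were higher, and these counts of rising genes do not stand for the whole lists. Itgam, a chain of complement receptor 3, had 4 counts in NC and averaged 121 ± 87.3 CPM in OTUB1_KD. Cfd, the protease that activates factor B, held 814, 1689 and 4 counts in the OTUB1_KD libraries and 0 in NC, and did not pass the filter.

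In SFD@M against Blank, 31 of the 48 passed the filter, and 28 rose and 1, Masp1, fell. Over all genes 49.5% were higher, 38.7% lower and 88.1% either. The median log2 fold change of the 31 was 5.46, against 0.23 over all genes. As in OTUB1_KD, many passed only through SFD@M, so neither the count nor the median stands for the whole list. C1qa, C1qb and C1qc averaged 64.5 ± 5.17, 70.6 ± 10.9 and 52.8 ± 5.38 CPM in SFD@M (SD, n = 3) and had 0 counts in Blank. Hc was at 526 ± 184 CPM and C7 at 377 ± 148 CPM in SFD@M, with 6 and 0 counts in Blank. Cd93, a surface protein of endothelium once described as a C1q receptor, was at 844 ± 147 CPM in SFD@M and 0.484 ± 0.177 CPM in Blank. Cfd passed here, with 475, 487 and 1163 counts in SFD@M and 0 in Blank. C4a (0.52 ± 0.32) and Cd46 (0.03 ± 0.15) did not pass.

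**Figure D3:**
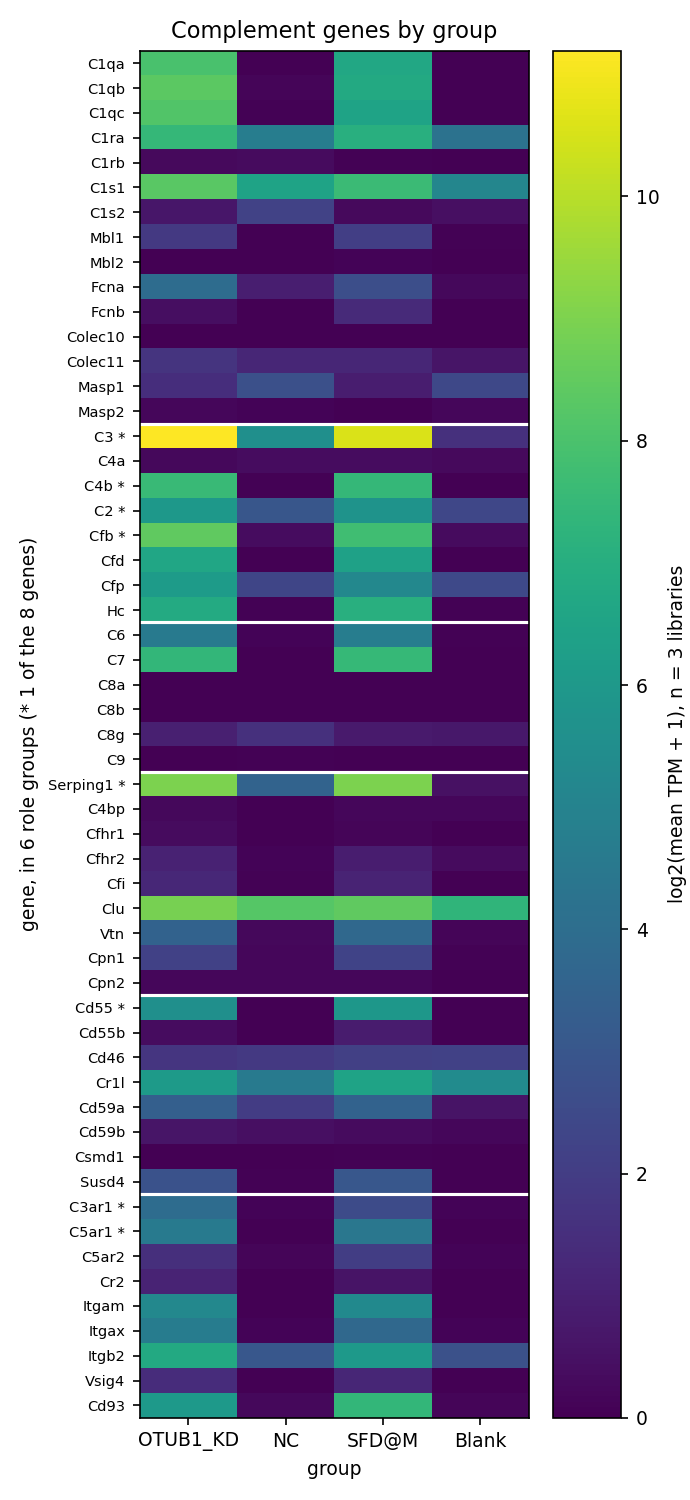
Mean TPM of 55 complement genes in each group, as log2(mean TPM + 1) with n = 3 libraries, in 6 role blocks divided by white lines (C1 and lectin initiators, convertase and alternative pathway, membrane attack complex, soluble inhibitors, membrane inhibitors, receptors). Asterisks mark the 8 genes. The OTUB1_KD and SFD@M columns are bright in all blocks, C8a, C8b and C9 stay dark throughout, and C3 is the brightest cell, at 2340 TPM in OTUB1_KD.

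Per length, on the TPM scale, the 8 genes kept nearly one order of mean levels in SFD@M and OTUB1_KD. In SFD@M the means were 1488 ± 243 TPM for C3, 507 ± 52.5 for Serping1, 218 ± 58.9 for Cfb, 176 ± 12.8 for C4b, 60.7 ± 11.6 for Cd55, 52.1 ± 3.56 for C2, 21.0 ± 1.83 for C5ar1 and 4.94 ± 0.725 for C3ar1 (SD, n = 3). There Cfb overlapped C4b and Cd55 overlapped C2. In OTUB1_KD they were 2340 ± 688 TPM for C3, 511 ± 145 for Serping1, 347 ± 73.6 for Cfb, 193 ± 72.5 for C4b, 62.0 ± 14.3 for C2, 46.2 ± 16.7 for Cd55, 23.0 ± 13.5 for C5ar1 and 14.6 ± 9.34 for C3ar1 (SD, n = 3). There C3 stood clear of Serping1 and C4b of its neighbours, while Serping1 overlapped Cfb, C2 overlapped Cd55, Cd55 overlapped C5ar1 and C5ar1 overlapped C3ar1. In Blank C2 led with 4.22 ± 0.340 TPM, ahead of C3 at 1.90 ± 0.142 TPM and Serping1 at 0.400 ± 0.125 TPM. In NC C3 led with 47.3 ± 2.26 TPM, ahead of Serping1 at 10.7 ± 0.967 TPM and C2 at 6.94 ± 0.596 TPM. All others were below 0.3 TPM on average in Blank and NC. C3 made up 27.7% to 41.2% of the TPM of the 56 complement genes in OTUB1_KD and 7.86% to 8.43% in NC. It made up 30.7% to 34.5% in SFD@M and 0.586% to 0.689% in Blank, where Clu alone held 52.5% to 54.7%. The club-cell gene Scgb1a1 took 23.3% to 23.8% of all TPM in SFD@M and 8.81% to 19.5% in OTUB1_KD, which lowers the TPM of every other gene there.

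SFD@M and OTUB1_KD come from separate experiments too, so that comparison is confounded like that of the controls. All 8 genes overlapped between them. Over all 14914 genes tested, 12.1% had every SFD@M library above every OTUB1_KD library and 16.7% had every one below. The rest overlapped too. The log2 fold changes of SFD@M over OTUB1_KD were −0.65 ± 0.32 for C3, −0.08 ± 0.32 for C4b, −0.21 ± 0.22 for C2, −0.63 ± 0.27 for Cfb, 0.02 ± 0.27 for Serping1, 0.42 ± 0.28 for Cd55, −1.51 ± 0.48 for C3ar1 and −0.08 ± 0.43 for C5ar1. Of 35 other complement genes tested, edgeR called 0 in either direction, and over all 14914 genes 0.0134% were called. At an unadjusted p under 0.05, 3 were higher and 8 lower, while 19.9% of all genes passed that level. In data simulated for this comparison the edgeR test recovered 22% of 2-fold and 93% of 4-fold changes. Its 0 calls therefore do not show the groups to be alike. DESeq2 called 1 higher (Cd93) and 3 lower (C1qa, C1qb, C1qc) of 47, against 1426 of all 18361 genes. Without OTUB1_KD replicate 2 edgeR called Cd93 higher and those 3, Cfp and Itgb2 lower of 37, against 1875 of all 15133 genes. Cd93 was at 844 ± 147 CPM in SFD@M and 318 ± 101 CPM in OTUB1_KD (1.42 ± 0.30, edgeR adjusted p = 0.093). The counts of C3 per count of C4b were 4.79, 8.00 and 6.25 in SFD@M and 10.6, 9.23 and 8.73 in OTUB1_KD.

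The change in SFD@M over Blank was then set against the change in OTUB1_KD over NC in 1 fit over the 12 libraries, which asks for each gene whether both contrasts were equally large. Of 36 other complement genes, 6 differed, against 23.1% of 15304 genes. Among these the change was larger in SFD@M for C1s1 (by 0.80 ± 0.26, edgeR adjusted p = 0.047), Clu (0.60 ± 0.18, 0.033), Cpn2 (3.57 ± 0.86, 0.015), Cd59a (2.89 ± 0.51, 0.0044) and Cd93 (2.08 ± 0.53, 0.018). For C1s1, Clu and Cd59a the controls themselves differed, as given above. Cd59a, for one, was at 12.1 ± 3.93 CPM in SFD@M and 10.95 ± 4.75 CPM in OTUB1_KD, and at 0.446 ± 0.134 CPM in Blank and 2.89 ± 0.379 CPM in NC, so the controls were farther apart than the other groups. For Cpn2 too the controls were farther apart, at 2 counts over Blank and 22 over NC. It held 28 counts over SFD@M and 25 over OTUB1_KD. Without NC replicate 1 the 6 became 3, with the calls of C1s1, Clu and Cd93 lost. Over the 12 fits that each left out 1 library, C1s1 lost its call in 10 (all but those without OTUB1_KD replicate 2 or SFD@M replicate 1) and Clu in 8 (all but those without an OTUB1_KD library or SFD@M replicate 2), Cd93 in 1, and Cpn2 and Cd59a in 0. For C3 and Serping1 both changes are given above, and their difference was not tested.

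Apart from Cfb, the genes varied less among the SFD@M libraries than among the OTUB1_KD libraries. The coefficient of variation of CPM was 15.7% in SFD@M and 30.8% in OTUB1_KD for C3, 9.89% and 38.0% for C4b, 6.53% and 26.6% for C2, and 10.6% and 32.7% for Serping1. It was 16.9% in SFD@M and 41.7% in OTUB1_KD for Cd55, and 24.0% and 23.7% for Cfb. The receptors showed the widest gap, with 12.7% in SFD@M and 62.1% in OTUB1_KD for C3ar1, and 9.69% and 56.4% for C5ar1. Within OTUB1_KD the genes fell into sets with unlike low points. C3, C4b, C2 and Serping1 were lowest in OTUB1_KD replicate 1. That library also had the lowest sum of alveolar type 2 markers, 9873 CPM against 21881 and 23605 CPM in replicates 2 and 3. Its endothelial sum was lowest too, 827 CPM against 1813 and 1805 CPM. So were its alveolar type 1, club-cell and mesothelial sums, at 1006, 12213 and 401 CPM, while its fibroblast sum was highest, at 5073 CPM. C3ar1 and C5ar1 were lowest in replicate 2, as were Itgam, at 42.8 CPM, and C1qa, C1qb and C1qc, at 87.2, 93.7 and 79.4 CPM. Adgre1, 1 of the 8 macrophage markers, was lowest there too, at 42.7 CPM against 63.1 and 51.9 CPM in replicates 1 and 3. The sums of immune markers did not share that low point. The macrophage sum was 3824, 5225 and 9117 CPM in OTUB1_KD replicates 1, 2 and 3, the leukocyte sum 696, 767 and 842 CPM, and the neutrophil sum 557, 361 and 156 CPM. Lyz2, at 2713 to 8105 CPM, made up most of that macrophage sum. Replicate 1 was highest in dividing-cell markers, at 724 CPM. Cfb was lowest in replicate 3, and Cd55 was highest in replicate 2. With 3 libraries no correlation is given, and the part of cell makeup was not tested.

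**Figure D4:**
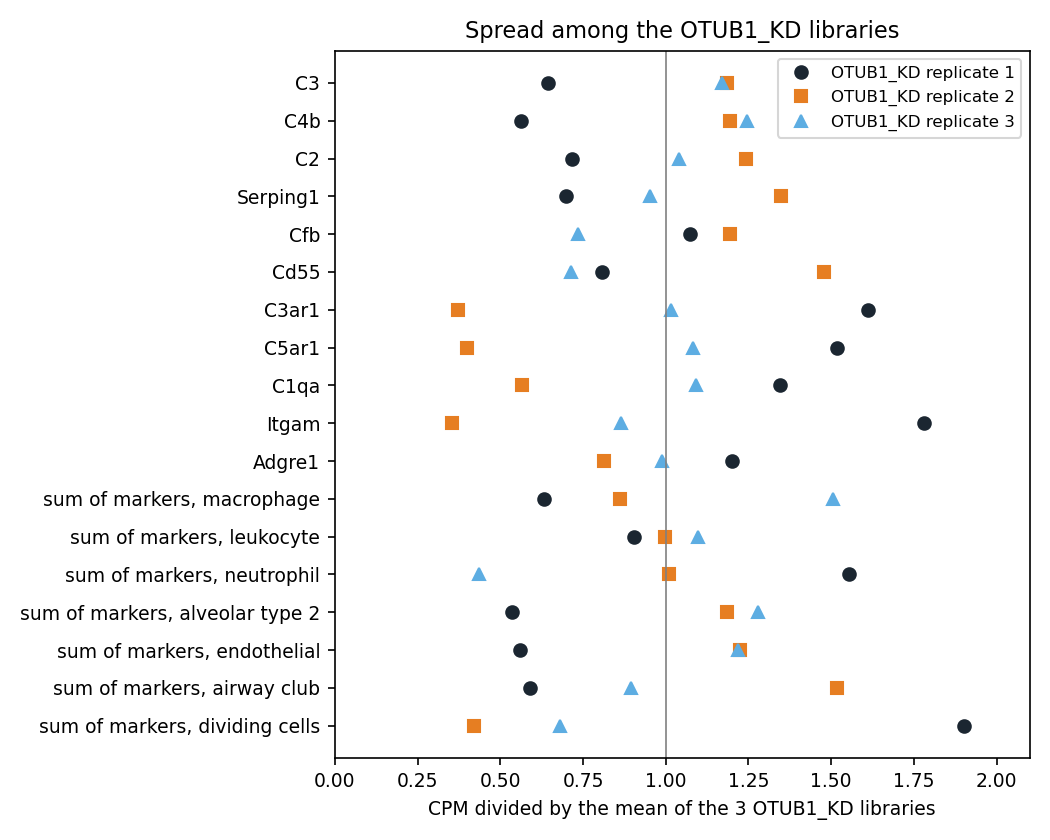
Level of the 8 genes, of 3 macrophage or myeloid genes (C1qa, Itgam, Adgre1) and of 7 marker sums in each OTUB1_KD library, as CPM divided by the mean of the 3 libraries. C3, C4b, C2 and Serping1 share their lowest point, replicate 1, with the alveolar type 2, endothelial and club-cell sums. C3ar1, C5ar1, C1qa, Itgam and Adgre1 have theirs in replicate 2, whereas the macrophage sum has its own in replicate 1.

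The deposited table lists transcripts, so the source of each sum could be read. C3 has a curated RefSeq transcript and a predicted one. The predicted one held 41.4% to 42.4% of the gene's TPM in OTUB1_KD and 21.3% to 27.6% in NC, and 42.4% to 49.3% in SFD@M and 20.6%, 21.7% and 44.6% in Blank. For C4b the curated transcript held 97.9% to 99.0% in OTUB1_KD and SFD@M, whereas the 5 counts in NC all fell on a predicted model that held 0.486% to 1.68% in those groups. Serping1 was also split between a curated and a predicted transcript, with the curated transcript at 56.6% to 61.3% in OTUB1_KD and 47.5%, 23.6% and 27.1% in NC, and at 56.4% to 62.8% in SFD@M and 100% of 20 counts in Blank. C2 and Cfb are each listed in duplicate, with reads divided evenly between the copies, so only their sums by gene were used. Transcript shares are estimates and were not tested.

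The genes closest to each member in pattern were taken as those with the highest Pearson r of log2(CPM + 1) over the 12 libraries, among 12176 genes with a mean of at least 5 CPM. These values rest mainly on the gap between the OTUB1_KD and SFD@M libraries and the NC and Blank libraries, and for C3 and Serping1 also on that between NC and Blank. They carry no p. C3 was closest to Tnfaip3 (0.997), Tgm2 (0.995) and Tmsb4x (0.994). C4b was closest to Krt19 and B4galnt1 (each 0.9998) and Sftpc (0.9996), and C2 to C1ra and Ano1 (each 0.997). Cfb was closest to Ildr2, Arsb and Rasgrp1, Serping1 to Bgn, Prickle1 and Anxa4, and Cd55 to Cstf2t, Nrn1 and Ggh. C3ar1 was closest to Esm1, Folr2 and Ccl8, and C5ar1 to Itgam (0.999), Pira2 and Trpm2.

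A list of 18 cytokines and transcription factors known to act on complement genes was read beside them. In OTUB1_KD against NC 15 passed the filter, 13 rose and 0 fell, beside 39.9% higher and 25.8% lower over all genes. Cebpd, a factor of the acute-phase response, averaged 36.2 ± 23.3 CPM in OTUB1_KD and 0.139 ± 0.0892 CPM in NC, as a mean ± SD over 3 libraries. Irf1 averaged 229 ± 47.9 CPM in OTUB1_KD and 50.7 ± 2.80 CPM in NC. In SFD@M against Blank 13 passed, 10 rose and 1, Nfkb1, fell, beside 49.5% higher and 38.7% lower over all genes. Some of these genes too passed the filter only through the group where they were high. Cebpd averaged 85.5 ± 14.2 CPM in SFD@M and 0.116 ± 0.101 CPM in Blank. In Blank against NC 9 passed, and Stat3 (−0.60 ± 0.04), Irf1 (−0.47 ± 0.05) and Relb (−0.44 ± 0.12) were lower while Nfkb1 (0.28 ± 0.03) and Rela (0.43 ± 0.04) were higher, beside 37.2% lower and 37% higher over all genes. Nfkb2 was at −0.08 ± 0.05 there and did not pass.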

How the data were processed

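Poly(A) RNA was sequenced from 12 samples, grouped by titles and treatment labels. The deposited table lists 70659 transcripts, each with estimated read counts (expected counts), TPM, FPKM and normalized read counts (a signal scaled by the authors), per the file headers. FPKM and the authors' group means were not used. GRCm39, Bowtie2, RSEM 1.3.1 and DESeq2 1.4.5 stand in the submitters' processing notes without roles; strand handling is not given in the sources used here. The normalized counts gave whole reads for 100% of values within 0.001 and entered an alternative.

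Expected counts were summed per Entrez gene and rounded; for 19155 of 19212 genes RefSeq's GRCm38.p6 tables gave a symbol, and they were used for names, chromosomes and promoter sequence. C4b, C2, Cfb and Serping1 had no promoter entry. Each comparison of 3 against 3 libraries used edgeR 4.0.16 in R 4.3.3 (filterByExpr, TMM, robust quasi-likelihood test, Benjamini-Hochberg over all genes tested, threshold 0.05); differences between contrasts used 1 fit over 12 libraries. TPM was tested with limma 3.58.1 on log2(TPM + 1) or log2(TPM + 0.1), and DESeq2 1.42.0 was an alternative. CPM are of library totals. Scripts were tested on simulated data. At this depth 1 count is about 0.06 CPM. The members, gene lists and rules for named genes were chosen with earlier results of these data known: all 8 members, genes of the complement and regulator lists, and 3 genes per member by likeness. Some genes that these rules name are counted but not reported here. Alternatives were other scalings, filters, tests, a replicate block, each library left out and, added after seeing the data, the recovered reads.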

Additional observations from a re-analysis of the deposited data

Results flagged for a closer look

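The change in SFD@M over Blank exceeded that in OTUB1_KD over NC in the interaction test for 6 of 36 other complement genes tested. Over all 15304 genes 23.1% differed in that test, in either direction. Among the 6 the differences on the log2 scale were 0.80 for C1s1, 0.60 for Clu, 3.57 for Cpn2, 2.89 for Cd59a and 2.08 for Cd93. For C1s1, Clu and Cd59a the controls themselves differed, as given above. The calls of C1s1 and Clu were lost in 10 and 8 of the 12 fits that left out 1 library, and that of Cd93 without NC replicate 1. Cpn2 rests on 28 counts over SFD@M and 2 over Blank, and on 25 counts over OTUB1_KD and 22 over NC. The fitted change of Cd93 was 10.71 ± 0.25 in SFD@M over Blank and 8.66 ± 0.43 in OTUB1_KD over NC, with 25 counts over Blank and 37 over NC. No explanation was tested.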

How the results depend on the processing

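Of 405 fold changes of the 8 genes under the alternatives, 347 moved by less than the spread between libraries, 50 moved by more with the same sign, most on the TPM scale, and 8 changed sign, all in SFD@M against OTUB1_KD, where the values lie near 0. For C5ar1 they were 0.074 and 0.090 on log2(TPM + 1) and log2(TPM + 0.1), and 0.12 with a replicate block. Leaving out 1 library at a time gave −0.47 to 0.35 for C5ar1 (positive without OTUB1_KD replicate 1), −0.18 to 0.25 for Serping1 (negative without that library and, at −0.067, without SFD@M replicate 3) and −0.37 to 0.14 for C4b (positive without OTUB1_KD replicate 2, at 0.029, and replicate 3). For the other complement genes, 1 in place of 2 was higher in Blank than in NC with all 12 libraries in 1 fit. In SFD@M against OTUB1_KD, 1 was higher and 3 lower with DESeq2, and 2 higher and 8 lower in the 12-library fit. Leaving out 1 library at a time gave 0 to 1 higher and 0 to 5 lower there, the 1 and 5 without OTUB1_KD replicate 2, and 3 to 8 genes in the interaction, the 3 without NC replicate 1. Over all genes that comparison had 2 calls with edgeR, 1426 with DESeq2, 2863 in the 12-library fit, 1875 without OTUB1_KD replicate 2 and 10 on log2(TPM + 1), of which 40% were higher, against 100% of the 2. The cause was not tested.

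Same-numbered libraries did not deviate together (correlations of −0.0003 to 0.0989 for OTUB1_KD with NC, −0.0045 to 0.0274 for SFD@M with Blank, −0.106 to 0.0614 for Blank with NC, −0.241 to 0.0429 for SFD@M with OTUB1_KD). Differently numbered libraries of Blank and NC gave −0.133 to 0.194. With 3 libraries per group these values cannot exclude a pairing, and the labels used here state none. With a replicate block 25 other complement genes were higher and 2 lower in OTUB1_KD than in NC, 28 and 1 in SFD@M than in Blank, 2 and 10 in Blank than in NC and 0 and 0 in SFD@M than in OTUB1_KD, and 4 differed in the interaction, where the calls of C1s1 and Clu were lost. Genes near 0 counts in NC and Blank limit what can be said of their fold changes.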
